A study of Bos taurus with 138 samples.

Results

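The transcripts described here encode factors of the pluripotency network, namely the transcription factors POU5F1, NANOG, SOX2, SALL4, OTX2, MYC and MYCN and the RNA-binding proteins LIN28A and LIN28B. These 9 genes were listed by name, and 8 of them matched a row of the table of 16706 genes. SOX2 was not analysed here. All 8 measured members passed the filter on low counts and are among the 14612 genes tested.

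POU5F1, also called OCT4, and NANOG are homeodomain factors that, together with SOX2, occupy their own and each other's regulatory regions and hold embryonic cells in a state from which all lineages of the body can arise. SALL4 is a zinc-finger partner of POU5F1, OTX2 is a homeodomain factor of the epiblast as it leaves the naive state, and MYC and MYCN are basic helix-loop-helix factors of growth and proliferation. LIN28A and LIN28B bind precursors of let-7 microRNAs and block their maturation, and they also bind messenger RNAs. In the early embryo the maternal transcripts of the oocyte are lost while the embryonic genome is activated, which in cattle occurs mainly at the 8-cell stage, and the pluripotent cells are later set apart in the inner cell mass of the blastocyst.

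The question addressed was at which stage each transcript appears in whole oocytes or embryos, at which stage it is found with polysomes, and whether the second lags behind the first. Immature cattle oocytes, which still hold the germinal vesicle (GV), oocytes arrested in metaphase II (MII), and in vitro produced 2-cell, 8-cell, morula and blastocyst embryos were compared. For every stage, 2 sucrose gradients (A and B) of 10 fractions each and 3 transcriptomes (A, B and C) of whole oocytes or embryos were sequenced. All groups consisted of pooled oocytes or embryos, cycloheximide, which holds ribosomes on the transcript, was added before collection per the study's methods, and no group carried a further treatment or an altered genotype. RNA that carries more ribosomes sediments further, so F1 and F2 hold mostly free RNA, F3 to F5 monosomes and F8 to F10 polysomes, with F6 and F7 between them. Each gradient contributed 1 polysome pool, the sum of the counts of F8 to F10, which gave 12 pools (n = 2 per stage) beside 18 transcriptomes (n = 3 per stage). Levels are given in CPM, the read count relative to the library total scaled with a TMM factor, and are proportions of the RNA in a library and not molecules per embryo. Transcript lengths were not used here, so levels are compared between libraries and never between genes. In bulk samples such as these, fewer cells that express a gene and less RNA per cell cannot be told apart, which matters in blastocysts, where trophectoderm makes up part of each embryo.

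Total counts ranged from 22543733 to 39380640 in the pools and from 3269386 to 11812567 in the transcriptomes, with the blastocyst transcriptomes the shallowest. A count of 3, taken as the floor of detection, corresponds to at most 0.145 CPM in a pool and to 0.882 CPM in the shallowest blastocyst transcriptome. Markers were summed as a check on the stage labels. The summed level of 13 oocyte markers was 29628 to 31325 CPM in GV transcriptomes and 54.5 to 561 CPM in those of morulae, and that of 14 trophectoderm markers was 308 to 545 CPM in morulae and 5776 to 7436 CPM in blastocysts. The sum of 10 hypoblast markers went the other way, from 4644 to 6097 CPM in morulae to 1247 to 1626 CPM in blastocysts. In blastocyst transcriptomes A, B and C the oocyte markers stood at 835, 63.9 and 199 CPM, so A lay above every morula library. The 8-cell transcriptome A stood apart, with a summed level of 12 cumulus and granulosa cell markers of 1353 CPM against 311 and 339 CPM in B and C, and calls of members that depend on this transcriptome are named. In polysome pools these markers stood at 1091 and 1003 CPM in GV gradients A and B and at 747 and 1475 CPM in those of MII. Calls of other genes were refitted without 8-cell transcriptome A for the step from the 2-cell to the 8-cell stage, an alternative chosen after the data were seen. Gradients and transcriptomes were separate library sets made from different pools, so the compartment and the kind of library cannot be told apart. TMM scaling moved all log2 differences between polysomes and transcriptomes by 0.41 at the morula stage, by 0.35 at the blastocyst stage and by -0.11 at MII, and by less than 0.1 at the other stages. Changes from MII to the 2-cell stage moved by -0.51 in transcriptomes and by -0.32 in polysomes. Changes from GV to MII moved by 0.41 and 0.39, the polysome change from the 8-cell stage to morula by 0.41, and the transcriptome change from morula to blastocyst by 0.12.

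In both compartments 5 members rose over the 2-cell stage, and in all 5 the first stage with a call was the same in transcriptomes and in polysomes. A first call marks a rise and not a first appearance, since POU5F1 and OTX2 were detected in both compartments at earlier stages. NANOG, MYC and MYCN were first called at the 8-cell stage, and POU5F1 and OTX2 at the morula stage. The 8-cell polysome call of MYCN rests on 6 counts in 1 gradient and is lost without that gradient. A member counts as risen where edgeR's quasi-likelihood test gives a Benjamini-Hochberg adjusted p under 0.05 and the level is more than 2-fold above that of 2-cell embryos. At the 8-cell stage 3 of 8 members had risen in transcriptomes, where 26.6% of all genes tested had, and 3 of 8 in polysomes, against 21% of all genes. At the morula stage the counts were 5 of 8 in transcriptomes (27.6% of all genes) and 6 of 8 in polysomes (25.8%). At the blastocyst stage they were 5 of 8 (28.8%) and 6 of 8 (25%). The additional member in polysomes was LIN28B, which was not called in transcriptomes at any of these stages. SALL4 and LIN28A, also present in oocytes, were called higher in neither compartment. SALL4 was lower in blastocyst than in 2-cell polysomes (log2 -1.17 ± 0.47, adjusted p = 0.0364, edgeR).

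**Figure D1:**
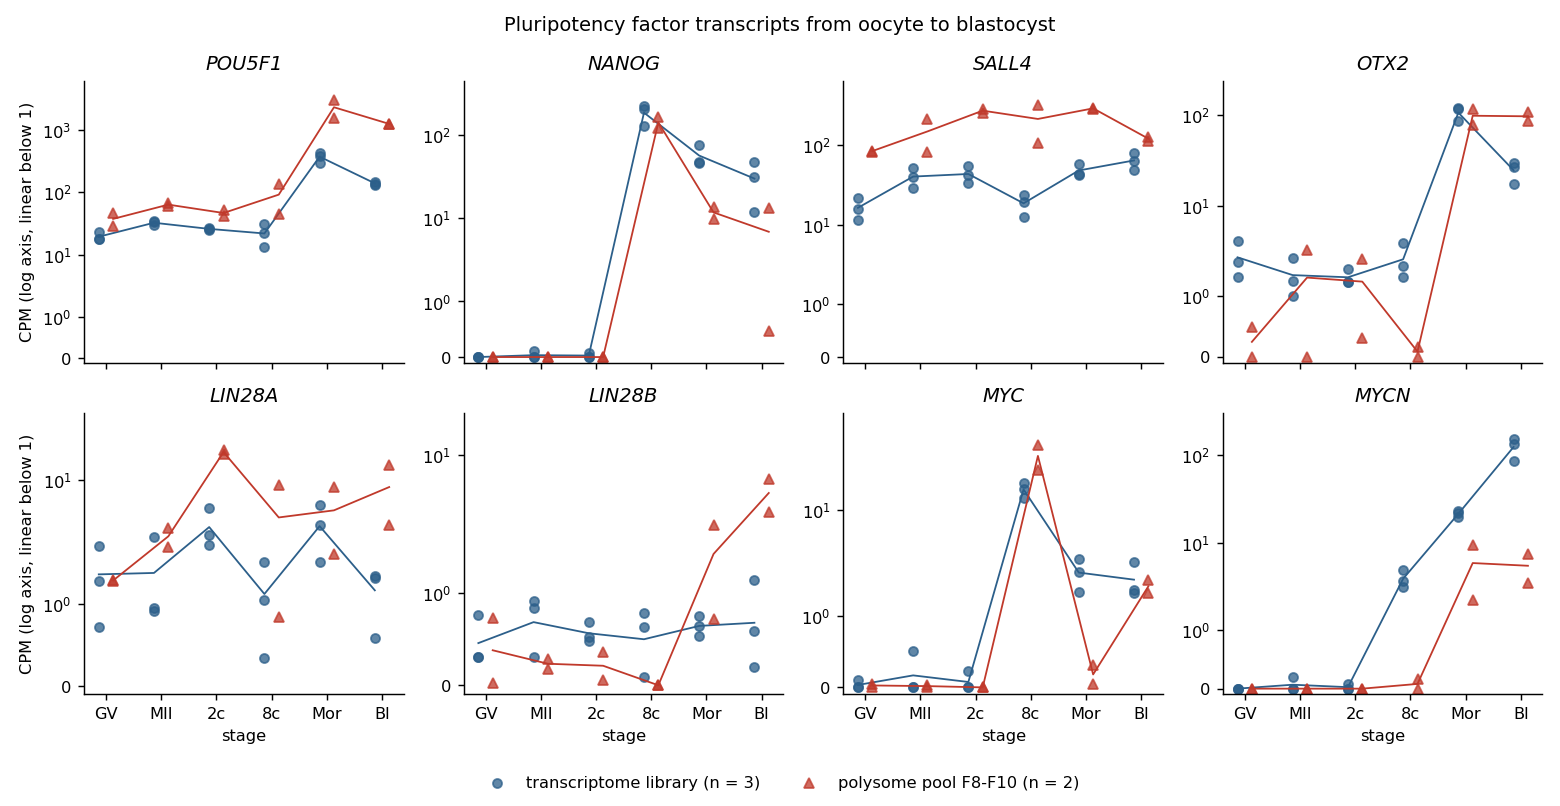
Levels of the 8 members in CPM (y axis, log scale that is linear below 1) at 6 stages (x axis), with circles for the 3 transcriptomes, triangles for the 2 polysome pools, and lines through the stage means. NANOG, MYC and MYCN lie at or near 0 before the 8-cell stage in both compartments, POU5F1 and OTX2 climb at the morula stage, and the MYCN triangles lie below its circles from the 8-cell stage on.

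POU5F1 was present in oocytes, stayed low until the 8-cell stage and climbed at the morula stage. Transcriptome levels were 17.8, 22.7 and 17.6 CPM at GV, 33.2, 29.8 and 34.5 CPM at MII, 24.4, 27.0 and 26.2 CPM at the 2-cell stage and 13.0, 21.9 and 30.7 CPM at the 8-cell stage. In morulae they were 431, 389 and 301 CPM, and in blastocysts 133, 138 and 148 CPM. The morula and blastocyst libraries all lay above those of every earlier stage and did not overlap with each other, whereas the neighbouring ranges of 2-cell, 8-cell and GV libraries overlapped. The rise from the 8-cell stage to morula was 17.1-fold (log2 4.10 ± 0.37 (SE), adjusted p = 8.09e-08, edgeR), and the fall to the blastocyst was 2.68-fold (log2 -1.42 ± 0.33, adjusted p = 0.00267, edgeR).

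In polysome pools, POU5F1 stood at 28.6 and 46.4 CPM at GV, 67.0 and 60.004 CPM at MII, 41.2 and 52.0 CPM at the 2-cell stage and 45.4 and 138 CPM at the 8-cell stage. It reached 3060 and 1584 CPM in morulae and 1241 and 1270 CPM in blastocysts. The 8-cell gradients lay apart, with A inside the range of 2-cell pools and B above all earlier pools, and both morula pools lay above all others. The increase from the 8-cell stage to morula was 25.3-fold (log2 4.66 ± 0.46, adjusted p = 1.84e-07, edgeR). It was 4.07 on the log2 scale without 8-cell gradient A and 5.67 without gradient B. From the 2-cell to the 8-cell stage the adjusted p was 0.047 with a change of 0.98 (log2), just under the 2-fold limit, and this change was 1.57 (adjusted p = 0.00234) without 8-cell gradient A and -0.035 (adjusted p = 1) without gradient B. The first polysome call of POU5F1 therefore moves to the 8-cell stage without gradient A.

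Polysome pools held a larger proportion of POU5F1 than transcriptomes at each stage, and the ranges of the compartments were apart at all 6. Before the morula stage F1 and F2 lay above transcriptomes too. Their means, in the scaling over all 138 libraries, were 34.4, 52.6, 60.6 and 111 CPM from GV to the 8-cell stage. The transcriptome means were 21.7, 38.1, 33.3 and 24.9 CPM. GV F3 to F5 lay lower, at 16.2 CPM. Of 20 single fractions, 12 lay above all 3 transcriptomes at GV, 15 at MII, 16 at the 2-cell and 19 at the 8-cell stage. In morulae 12 lay above and 4 below, and in blastocysts 15 above and 3 below. Blastocyst means were 185 CPM in F1 and F2, 281 CPM in F3 to F5 and 509 CPM in F6 and F7. The transcriptome mean there was 141 CPM. F1 and F2 of blastocysts held 76.5 CPM in gradient A and 294 CPM in gradient B. In morulae F1 and F2 (255 CPM) and F3 to F5 (389 CPM) lay below the transcriptome mean of 413 CPM. Between pools and transcriptomes the log2 difference was 0.95 ± 0.36 in GV oocytes (adjusted p = 0.0387), 0.97 ± 0.36 in MII oocytes (adjusted p = 0.025) and 0.85 ± 0.36 in 2-cell embryos (adjusted p = 0.0522, not called, edgeR). It was 2.07 ± 0.36 in 8-cell embryos (adjusted p = 3.97e-05), 2.63 ± 0.36 in morulae (adjusted p = 2.59e-06) and 3.17 ± 0.37 in blastocysts (adjusted p = 4.03e-07, edgeR), where it amounts to 8.99-fold. The values from the 8-cell stage on were called in every fit that left out 1 library, the 8-cell value being 2.66 without gradient A and 1.05 without gradient B. The GV call was lost without gradient B (0.56, adjusted p = 0.374) or transcriptome A (0.89, adjusted p = 0.0972) or C (0.89, adjusted p = 0.103). The MII call was lost without any 1 of its 5 libraries (0.83 to 1.01, adjusted p 0.0535 to 0.136).

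NANOG appeared as a new embryonic transcript at the 8-cell stage. No read was assigned to it in GV transcriptomes or in any pool before the 8-cell stage, and 1 count each was seen in MII transcriptome B and 2-cell transcriptome B. In 8-cell embryos it stood at 126, 220 and 205 CPM in transcriptomes and at 161 and 120 CPM in polysomes, and the ranges overlapped (log2 difference -0.39 ± 0.79, adjusted p = 0.688, edgeR). Against the floor of 3 counts over the 2-cell pools the polysome level was at least 3103-fold higher, and against the single count of the 2-cell transcriptomes the ratio was 7126 (95% counting interval 1279 to 281523). Both rises were called (adjusted p = 1.55e-06 in polysomes and 1.69e-07 in transcriptomes, edgeR). Without 2-cell transcriptome B, which holds that count, the fitted log2 change in transcriptomes was 14.71 in place of 12.46.

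After the 8-cell stage NANOG fell in polysomes, while its lower mean in transcriptomes was not called. Morula transcriptomes held 47.3, 45.1 and 76.0 CPM and morula pools 13.7 and 9.69 CPM, and the compartments did not overlap. Light fractions of morulae were low too. Their means were 14.8 CPM in F1 and F2, 27.5 CPM in F3 to F5 and 5.77 CPM in F6 and F7. In that scaling, over all 138 libraries, the transcriptome mean was 62.1 CPM. Of 20 single morula fractions, 19 lay below all 3 transcriptomes. The polysome level fell by 3.58 ± 0.95 on the log2 scale, or 11.99-fold (adjusted p = 0.00656, edgeR), whereas the 3.27-fold lower transcriptome level did not pass (log2 -1.71 ± 0.72, adjusted p = 0.118, edgeR). The difference between these changes was itself not called (log2 -1.87 ± 1.12, 95% interval -4.22 to 0.47, adjusted p = 0.299, edgeR). NANOG was lower in polysomes than in transcriptomes at the morula stage (log2 -2.26 ± 0.86, adjusted p = 0.0336, edgeR). This call was lost without morula gradient A (-2.56, adjusted p = 0.0777), gradient B (-2.04, adjusted p = 0.138) or transcriptome C (-1.999, adjusted p = 0.0829). Blastocyst levels were 11.8, 46.4 and 31.0 CPM in transcriptomes and 13.2 and 0.468 CPM in polysomes in gradients A and B, so A lay within the range of the transcriptomes and B below it. The difference from transcriptomes at this stage was -2.12 ± 0.86 (adjusted p = 0.0551, edgeR, not called), and it was called without gradient A (-5.99, adjusted p = 0.000194), which leaves the pool of 11 counts, or without transcriptome A (-2.50, adjusted p = 0.0356).

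SALL4 was present throughout, from GV oocytes to blastocysts. Maternal and newly made RNA were not told apart here. Transcriptome levels were 15.6, 21.6 and 11.5 CPM at GV, 51.8, 39.5 and 28.7 CPM at MII and 42.0, 32.8 and 54.5 CPM at the 2-cell stage. They were 12.4, 19.3 and 23.7 CPM in 8-cell embryos, 58.1, 42.7 and 42.2 CPM in morulae and 79.7, 47.9 and 63.6 CPM in blastocysts. The GV and 8-cell libraries were the lowest, and neither range overlapped with MII, 2-cell, morula or blastocyst libraries. SALL4 rose 2.47-fold from GV to MII (log2 1.30 ± 0.39, adjusted p = 0.0188), fell 2.34-fold from the 2-cell to the 8-cell stage (log2 -1.22 ± 0.39, adjusted p = 0.0105) and rose 2.59-fold to the morula (log2 1.37 ± 0.39, adjusted p = 0.017, edgeR). The first call was lost without GV transcriptome A (1.27, adjusted p = 0.0687) or C (1.11, adjusted p = 0.102) or MII transcriptome A (1.08, adjusted p = 0.0948), and with library totals in place of TMM (0.92, adjusted p = 0.12). The fall was lost without 2-cell transcriptome C (-1.02, adjusted p = 0.0521) or 8-cell transcriptome A (-1.004, adjusted p = 0.0594), and the last rise without 8-cell transcriptome A (1.15, adjusted p = 0.0908) or morula transcriptome A (1.204, adjusted p = 0.0751).

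SALL4 pools held 84.7 and 82.4 CPM at GV, 214 and 81.3 CPM at MII, 286 and 252 CPM at the 2-cell stage, 107 and 316 CPM at the 8-cell stage, 293 and 281 CPM in morulae and 113 and 127 CPM in blastocysts. Each pool lay above the 3 transcriptomes of its stage, and no change between consecutive stages was called in polysomes. The log2 difference between polysomes and transcriptomes was 2.36 ± 0.42 at GV, 1.88 ± 0.42 at MII, 2.64 ± 0.42 at the 2-cell stage, 3.52 ± 0.44 at the 8-cell stage and 2.59 ± 0.42 at the morula stage (adjusted p from 3.83e-07 to 0.000507, edgeR), and 0.91 ± 0.42 in blastocysts (adjusted p = 0.0839, not called). Without MII gradient A the MII value was 0.97 (adjusted p = 0.0974), and without 8-cell gradient B the 8-cell value was 2.53 (adjusted p = 2.45e-05). The higher level was seen in light fractions too. Single fractions lay above all 3 transcriptomes in 20 of 20 libraries at GV, 18 at MII, 19 at the 2-cell stage, 20 at the 8-cell and morula stages and 15 at the blastocyst stage.

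OTX2 was a trace transcript up to the 8-cell stage and joined POU5F1 at the morula. Transcriptomes held 1.43 to 1.98 CPM in 2-cell embryos and 1.63, 3.85 and 2.17 CPM in 8-cell embryos, then 118, 84.8 and 115 CPM in morulae and 17.3, 27.0 and 29.2 CPM in blastocysts. Polysome pools held 2.59 and 0.308 CPM in 2-cell embryos, 0 and 0.163 CPM (6 counts, all in gradient B) in 8-cell embryos, 78.3 and 118 CPM in morulae and 84.6 and 108 CPM in blastocysts. Morula ranges overlapped between compartments, while in blastocysts both pools lay above all 3 transcriptomes. The higher blastocyst level was seen in light fractions too. Means over all 138 libraries' scaling were 48.1 CPM in F1 and F2 and 86.9 CPM in F3 to F5. F6 and F7 stood at 93.2 CPM, F8 to F10 at 76.5 CPM and transcriptomes at 24.8 CPM. Of 20 single blastocyst fractions, 19 lay above all 3 transcriptomes and 1 below. The rise from the 8-cell stage to morula was 41.4-fold in transcriptomes (log2 5.37 ± 1.08, adjusted p = 0.0013, edgeR) and 9.96 ± 1.66 on the log2 scale in polysomes (adjusted p = 8.47e-05), where it was 9.17 without 8-cell gradient A and 13.73 without gradient B. From morula to blastocyst the transcriptome level changed by -2.11 ± 0.93 (adjusted p = 0.105, edgeR) and the polysome level by -0.02 ± 1.08 (adjusted p = 1), and the difference of these changes was not called (2.09, 95% interval -0.90 to 5.07, adjusted p = 0.369, edgeR).

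Before that rise OTX2 was scarce in polysomes relative to whole embryos at 2 stages. In GV oocytes the pools held 0 and 0.486 CPM against 2.35, 1.64 and 4.05 CPM in transcriptomes (log2 -3.44 ± 1.23, adjusted p = 0.0287, edgeR), a call lost without gradient A (-2.44, adjusted p = 0.198) or transcriptome C (-3.02, adjusted p = 0.0769) and at -8.55 without gradient B. In 8-cell embryos the difference was -4.70 ± 1.38 (adjusted p = 0.00567, edgeR), at -3.91 without gradient A and -8.47 without gradient B. Reads were sparse over the whole gradient at that stage. Of 20 single fractions, 6 held any count of OTX2, and 16 lay below all 3 transcriptomes and 4 above. F5 held 180 counts in gradient A and 187 in gradient B. In MII oocytes gradient A held 3.21 CPM and gradient B 0 CPM. The polysome level fell from the 2-cell to the 8-cell stage (log2 -3.89 ± 1.39, adjusted p = 0.0245, edgeR), but not without 2-cell gradient A (-1.67, adjusted p = 0.438) or 8-cell gradient A (-3.10, adjusted p = 0.116), and it was -4.72 without 2-cell gradient B and -7.67 without 8-cell gradient B.

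Of the RNA-binding members, LIN28A was detected in all 12 groups of pools and transcriptomes. Among these groups its mean was highest in the polysomes of 2-cell embryos. Pools held 1.54 and 1.54 CPM in GV oocytes, 4.11 and 2.90 CPM in MII oocytes and 17.4 and 16.2 CPM in 2-cell embryos. The later pools of a stage lay far apart, with 9.10 and 0.840 CPM at the 8-cell stage, 8.82 and 2.53 CPM in morulae and 4.31 and 13.2 CPM in blastocysts. Transcriptomes ranged from 0.343 CPM in an 8-cell library to 6.25 CPM in a morula library, and neighbouring stages in the order of their means overlapped. Light fractions of 2-cell embryos held LIN28A too, at 26.0 CPM in F1 and F2 and 14.3 CPM in F3 to F5. F6 and F7 stood at 21.6 CPM and F8 to F10 at 14.8 CPM. All 20 single 2-cell fractions lay above the 3 transcriptomes. In blastocysts F6 and F7 stood at 10.6 CPM and F8 to F10 at 7.24 CPM. There 13 of 20 fractions lay above all 3 transcriptomes and 5 below. The 2-cell pools lay above all MII pools and above the 2-cell transcriptomes (3.58, 2.96 and 5.94 CPM), yet neither the increase from MII (log2 2.26 ± 1.05, adjusted p = 0.193) nor the difference from transcriptomes (2.01 ± 0.91, adjusted p = 0.0673, edgeR) was called. In blastocysts LIN28A was higher in polysomes (2.74 ± 0.96, adjusted p = 0.0259, edgeR). This call was lost without gradient B (1.72, adjusted p = 0.246) or any 1 of transcriptomes A, B and C (2.42, 2.94 and 2.91, adjusted p from 0.0522 to 0.0886).

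LIN28B was near the floor in every transcriptome, from 0.0857 CPM (1 count) in an 8-cell library to 1.24 CPM (6 counts) in a blastocyst library, and these levels overlapped between all stages. Pools held 0.732 and 0.0270 CPM in GV oocytes, 0.180 and 0.286 CPM in MII oocytes and 0.361 and 0.0615 CPM in 2-cell embryos. No count was seen in either 8-cell pool, 15 and 108 counts (0.723 and 3.11 CPM) in morulae and 89 and 157 counts (3.87 and 6.68 CPM) in blastocysts. Blastocyst pools lay above all other pools. From the floor of the 8-cell pools, the morula level was at least 45.2-fold higher (adjusted p = 0.00117, edgeR), a fitted rise of 8.12 that was 8.80 without morula gradient A and 6.68 without gradient B. The transcriptome change was 0.36 ± 1.04, and the difference between both changes passed (log2 7.76 ± 1.94, adjusted p = 0.0109, edgeR) and was kept with any 1 library left out, at 6.32 without morula gradient B. F7 of 8-cell gradient B alone held 180 counts. With F7 added to the pools the difference between changes was -0.15 (adjusted p = 1).

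The other LIN28B calls rested on few counts. The fall to the 8-cell stage in polysomes was at least 4.47-fold (adjusted p = 0.0144, edgeR) and was lost without 2-cell gradient A (adjusted p = 0.123) or 8-cell gradient A (adjusted p = 0.0589) or B (adjusted p = 0.0784), while it was -5.69 on the fitted log2 scale without 2-cell gradient B. With F7 in the pools the direction turned, to 3.47 on the log2 scale. Polysomes lay at least 10.1-fold below transcriptomes at the 8-cell stage (adjusted p = 0.00274, edgeR), and with F7 in the pools they lay above (1.92 on the log2 scale). In blastocysts they lay 7.71-fold above (log2 2.95 ± 1.16, adjusted p = 0.0462, edgeR), which was lost without gradient A (3.27, adjusted p = 0.067) or B (2.50, adjusted p = 0.17) or transcriptome A (2.86, adjusted p = 0.107) or C (2.48, adjusted p = 0.146), and was 3.75 without transcriptome B. Light fractions of blastocysts held LIN28B too. In the scaling over all 138 libraries, means were 9.42 CPM in F1 and F2 and 7.44 CPM in F3 to F5. F6 and F7 stood at 2.36 CPM, F8 to F10 at 4.32 CPM and transcriptomes at 0.691 CPM. The light-fraction means rested mostly on F1 of gradient A (75 counts) and F4 of gradient B (186 counts). Of 20 single blastocyst fractions, 13 lay above all 3 transcriptomes and 5 below. Over the 2-cell pools LIN28B rose in morula polysomes (3.14 ± 1.31, adjusted p = 0.0448, edgeR). It also rose in blastocyst polysomes (4.59 ± 1.39, adjusted p = 0.00763, edgeR). The first call was lost without 2-cell gradient B (2.39, adjusted p = 0.239) or morula gradient B (1.76, adjusted p = 0.303), and the second without 2-cell gradient B (3.84, adjusted p = 0.0795). Without 2-cell gradient A they were 4.81 and 6.27.

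MYC was highest at the 8-cell stage in both compartments. At earlier stages its transcriptomes held 0 to 5 counts and its pools 0 to 2. In 8-cell embryos it stood at 12.8, 18.01 and 15.7 CPM in transcriptomes and 23.5 and 40.5 CPM in polysomes, with both pools above all transcriptomes (log2 1.04 ± 1.01, adjusted p = 0.381, edgeR). In gradient B, F10 alone held 1303 of the 1494 counts of the pool, while F8 and F9 stood at 7.94 and 5.92 CPM. The polysome rise over the 2-cell floor was at least 770-fold (adjusted p = 2.5e-05), and the transcriptome rise over 3 counts was 201-fold (95% counting interval 68.4 to 977, adjusted p = 5.01e-05, edgeR). All 3 of those counts lay in transcriptome A, without which the fitted log2 rise was 11.14 in place of 7.54. Morula levels were 1.68, 2.59 and 3.45 CPM in transcriptomes and 0.0482 and 0.316 CPM (1 and 11 counts) in polysomes, and blastocyst levels 1.76, 1.66 and 3.20 CPM and 1.65 and 2.17 CPM. Of 20 single morula fractions, 17 lay below all 3 transcriptomes and 2 above, with F3 of gradient B at 21.0 CPM. Morula means were 2.79 CPM in F1 and F2, 4.57 CPM in F3 to F5 and 0.275 CPM in F6 and F7. The transcriptome mean was 2.85 CPM in that scaling.

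From the 8-cell stage to morula, MYC fell in polysomes (log2 -7.34 ± 1.499, adjusted p = 0.000707, edgeR), at -6.62 without morula gradient A and -9.16 without gradient B. In transcriptomes the level was 6.02-fold lower (log2 -2.59 ± 0.98, adjusted p = 0.0776, edgeR, not called). The difference of -4.75 ± 1.57 between these changes passed (adjusted p = 0.0496). It was -6.57 without morula gradient B and was lost without morula gradient A (-4.04, adjusted p = 0.146) or any 1 of the 8-cell and morula transcriptomes (-4.98 to -4.48, adjusted p 0.0621 to 0.0952). At the morula stage MYC was lower in polysomes than in transcriptomes (-3.70 ± 1.25, adjusted p = 0.0169, edgeR), at -3.02 (adjusted p = 0.0982) without gradient A and -5.55 without gradient B. Its 12 counts in morula pools were still called above the 0 counts of 2-cell pools (adjusted p = 0.0182, edgeR), but not without 2-cell gradient A (adjusted p = 0.0873) or B (adjusted p = 0.0791) or morula gradient B (adjusted p = 0.196).

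MYCN climbed in transcriptomes at each step from the 8-cell stage to the blastocyst and stayed low in polysomes. Transcriptomes held 3.68, 4.84 and 3.13 CPM in 8-cell embryos, 21.7, 23.0 and 19.7 CPM in morulae and 85.8, 152 and 135 CPM in blastocysts, with no overlap between stages. Pools held 0 and 0.163 CPM (6 counts, all in F10 of gradient B), then 2.22 and 9.52 CPM, then 3.44 and 7.49 CPM, and the last stages overlapped. Against 1 count at the 2-cell stage, the 8-cell transcriptome ratio was 151 (95% counting interval 26.6 to 6006, adjusted p = 3.38e-05, edgeR), and the fitted log2 change was 9.15 in place of 6.90 without 2-cell transcriptome A. The steps that followed were 5.51-fold (log2 2.46 ± 0.71, adjusted p = 0.0235) and 5.798-fold (2.54 ± 0.71, adjusted p = 0.0129, edgeR). The first of these was lost without 8-cell transcriptome A, B or C (adjusted p 0.0549 to 0.0887) or morula transcriptome A or B (0.0562 and 0.061), and the second without morula transcriptome C (0.0567) or blastocyst transcriptome B (0.0536), with values that stayed between 2.33 and 2.65 and between 2.37 and 2.74.

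The polysome entry of MYCN at the 8-cell stage rested on those 6 counts, at least 2.24-fold above the 2-cell floor (adjusted p = 0.0446, edgeR), while the ranges of the stages overlapped at 0. The call was lost without 8-cell gradient B (log2 0, adjusted p = 1) or 2-cell gradient A (adjusted p = 0.152) or B (adjusted p = 0.138), and the fitted value was 4.598 without 8-cell gradient A. Its first polysome stage is then the morula, 1 stage after the transcriptome. The polysome rise to morula was called in each of these fits (log2 5.92 ± 1.07, adjusted p = 0.000362), with values of 5.12 and 9.68 without 8-cell gradients A and B and of 6.61 and 4.52 without morula gradients A and B. The log2 difference of MYCN between polysomes and transcriptomes was -5.33 ± 1.03 at the 8-cell stage (adjusted p = 0.000236), -1.86 ± 0.80 at the morula stage (adjusted p = 0.0585, not called) and -4.51 ± 0.92 at the blastocyst stage (adjusted p = 0.000689, edgeR), where polysomes lay 22.7-fold lower. The 8-cell difference was -4.52 without gradient A and -9.08 without gradient B. The morula difference was -3.28 (adjusted p = 0.0134) without gradient B. The blastocyst difference was -5.17 without gradient B.

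**Figure D2:**
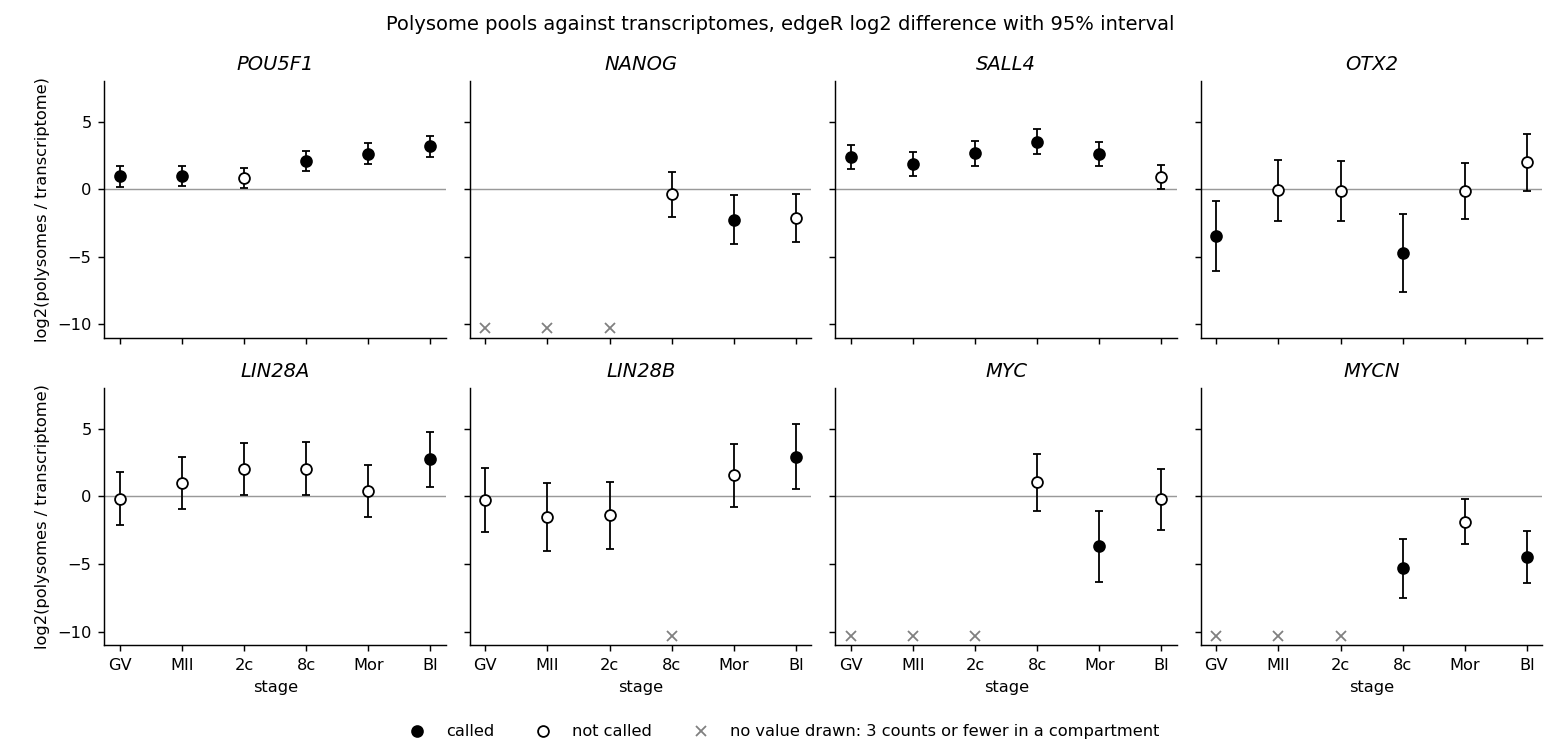
Fitted log2 difference between polysome pools and transcriptomes (y axis) at 6 stages (x axis) with 95% intervals, filled where the adjusted p was under 0.05 and crossed where a compartment held 3 counts or fewer. SALL4 and POU5F1 lie above 0 at every stage, with POU5F1 highest in blastocysts (3.17), and MYCN lies below 0 at the 3 stages where both compartments held more than 3 counts.

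Counted over members, consecutive transcriptome changes were called for 1 of 8 from GV to MII, where 17.1% of all genes were called, 0 of 8 from MII to the 2-cell stage (12%), 4 of 8 to the 8-cell stage (50.1%), 4 of 8 to morula (14.4%) and 2 of 8 to blastocyst (21.6%). In polysomes they were 0 of 8 (5.37%), 0 of 8 (8.51%), 5 of 8 (46.3%), 6 of 8 (36.2%) and 0 of 8 (13.9%). In the 4 comparisons without a call the members with an unadjusted p under 0.05 in edgeR numbered 0 for transcriptomes from MII to the 2-cell stage and 1, 1 and 3 for polysomes from GV to MII, from MII to the 2-cell stage and from morula to blastocyst, and the last of these had 2 calls with the likelihood ratio test and 1 with DESeq2. The share of members called from the 2-cell to the 8-cell stage was thus near that of all genes in both compartments. Of the 5 polysome calls at that step, those of LIN28B, MYCN and OTX2 were lost in some fits with 1 library left out. From the 8-cell stage to morula the share of members called was above that of all genes in both compartments. The 4 transcriptome calls from the 8-cell stage to morula, POU5F1, SALL4, OTX2 and MYCN, were all rises. The 6 polysome calls were rises of POU5F1, OTX2, LIN28B and MYCN and falls of NANOG and MYC. The median log2 change over the 8 members at that step was 1.59 in transcriptomes and 2.55 in polysomes, beside -0.05 and 0 over all genes.

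Between compartments, members were called in 3 of 8 cases at GV (39.8% of all genes), 2 of 8 at MII (57.5%), 1 of 8 at the 2-cell stage (51%), 5 of 8 at the 8-cell stage (59.1%), 4 of 8 at the morula stage (51.7%) and 4 of 8 at the blastocyst stage (40.1%). These shares lay at or below those of all genes, save for 8-cell embryos and blastocysts, where they were slightly above. NANOG and MYCN held 3 counts or fewer in both compartments at GV, MII and the 2-cell stage, as did MYC at GV and the 2-cell stage. The shares at these stages thus rest on fewer members with reads. In direction, POU5F1 and SALL4 were higher in polysomes wherever they were called, LIN28A and LIN28B were higher in blastocysts, LIN28B was lower at the 8-cell stage, and NANOG, OTX2, MYC and MYCN were lower wherever they were called. Changes that differed between compartments were called for 0 of 8 members from GV to MII (10.6%), 0 of 8 from MII to the 2-cell stage (1.81%), 0 of 8 to the 8-cell stage (12.2%), 2 of 8 to morula (12.5%) and 0 of 8 to blastocyst (12.3%). At an unadjusted p under 0.05 the counts in these 5 comparisons were 1, 0, 4, 4 and 3 with edgeR's quasi-likelihood test, and the calls were 0, 0, 2, 4 and 3 with its likelihood ratio test and 0, 0, 1, 4 and 3 with DESeq2.

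In morulae and blastocysts the level of POU5F1 increased towards the heavy fractions of the gradient. In morulae the mean over both gradients was 255 CPM in F1 and F2, 389 CPM in F3 to F5, 824 CPM in F6 and F7 and 1745 CPM in F8 to F10, and in blastocysts it was 185, 281, 509 and 1018 CPM. In both gradients of both stages the mean of F8 to F10 was above that of each lighter class, although in morula gradient B the level peaked in F8 at 2191 CPM and was 523 CPM in F10. Spearman's rho of level against fraction number from F3 to F10 was 0.82 in morulae and 0.93 in blastocysts (16 libraries from 2 gradients, adjusted p = 0.0269 and 0.00153 by permutation). Adjacent fractions of a gradient are not independent, and with a single gradient rho was 0.74 to 0.98 in morulae and 0.95 to 0.98 in blastocysts, none of which passed. In 8-cell embryos, by contrast, rho was -0.02 and the level was 111 CPM in F1 and F2 and 80.4 CPM in F8 to F10. CPM of single fractions were scaled over all 138 libraries and differ slightly from those of the pools.

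Trends were called for 1 of 8 members in morulae, where 1.59% of all genes were called, and for 1 of 8 in blastocysts (7.56%), POU5F1 in both. In 8-cell embryos 2 of 8 were called (16.6%), with NANOG rising (rho 0.72, adjusted p = 0.0222 by permutation) and SALL4 falling (rho -0.70, adjusted p = 0.0298). In GV oocytes 2 of the 4 members above a mean of 1 CPM were called (36.7%), with SALL4 (rho -0.91, adjusted p = 0.000244 by permutation) and OTX2 (rho -0.72, adjusted p = 0.011) falling. None of 4 was called in MII oocytes (19.3%, of which 2 had an unadjusted permutation p under 0.05) or in 2-cell embryos (20.4%, 1 with an unadjusted p under 0.05). NANOG of 8-cell embryos had means of 73.0 CPM in F1 and F2, 26.7 CPM in F3 to F5, 31.2 CPM in F6 and F7 and 125 CPM in F8 to F10, and with F1 and F2 in the test rho was 0.45 and not called. In 18 of the 20 single fractions NANOG lay below all 3 transcriptomes. With library totals in place of TMM the SALL4 trend of 8-cell embryos was lost (rho -0.59, adjusted p = 0.0897 by permutation) and a POU5F1 trend in GV oocytes was called (rho 0.69, adjusted p = 0.0166, against 0.55 and 0.0755 as reported). Single gradients kept the sign of all 6 trends, but without gradient A only SALL4 in GV oocytes was called and without gradient B none was.

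**Figure D3:**
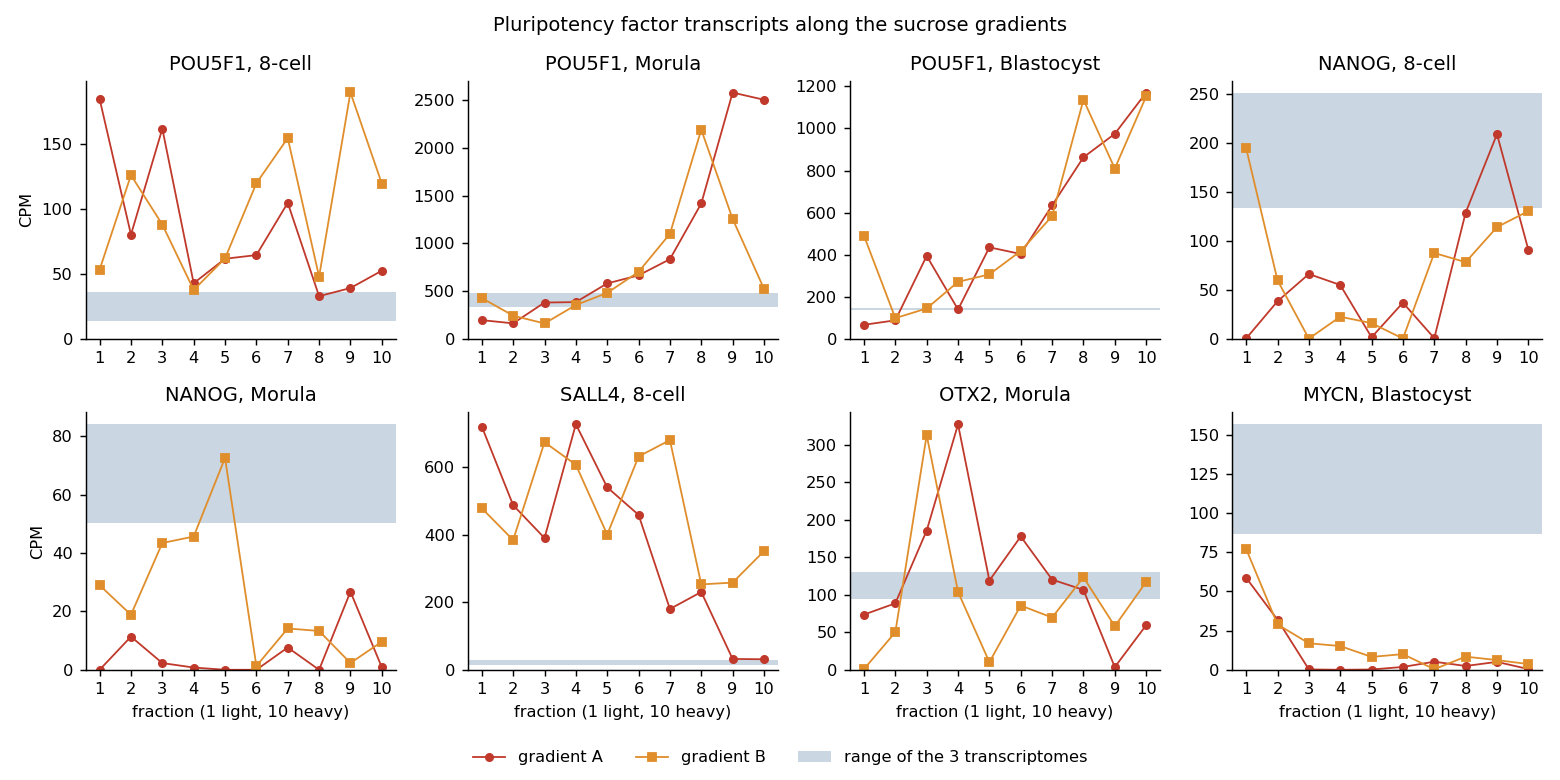
CPM (y axis) in fractions 1 to 10 (x axis) of gradients A and B for 8 pairs of member and stage, with a band for the range of the 3 transcriptomes. POU5F1 increases towards the heavy fractions in morulae and blastocysts, SALL4 of 8-cell embryos lies above the band in all 20 libraries, and MYCN of blastocysts is highest in F1 and F2 and below the band throughout.

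MYCN, which was scarce in polysomes, was highest in light fractions in blastocysts. There its mean was 49.2 CPM in F1 and F2, 6.79 CPM in F3 to F5, 4.33 CPM in F6 and F7 and 4.36 CPM in F8 to F10, and all 4 libraries of F1 and F2 (58.7 and 31.9 CPM in gradient A, 77.1 and 28.9 CPM in gradient B) lay above the 16 others. In morulae the means were 19.2, 16.5, 5.43 and 4.50 CPM. In 8-cell embryos 8 of 20 fractions held any count, among them F1 of gradient A with 193 counts and F6 of gradient B with 163 counts. OTX2 of morulae was highest in monosomes, with 177 CPM in F3 to F5 against 53.4 CPM in F1 and F2 and 78.1 CPM in F8 to F10 (rho -0.55, adjusted p = 0.281 by permutation, not called). SALL4 of 8-cell embryos had means of 518, 557, 488 and 193 CPM in the 4 classes, and in GV oocytes of 176, 307, 161 and 79.4 CPM.

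The lag between the first called rise in transcriptomes and that in polysomes, counted in stages, was 0 for all 5 members called in both compartments. It was 1 stage for MYCN with separate models, after thinning to equal depth and without 2-cell gradient A or B or 8-cell gradient B. For POU5F1 the polysome call came 1 stage before the transcriptome call with no filter, with F9 and F10 or F7 to F10 as the pool, after thinning and without 8-cell gradient A, and OTX2 had no polysome call with separate models. The stage of the highest mean was the same in both compartments for 4 members, the morula for POU5F1 and OTX2 and the 8-cell stage for NANOG and MYC. For MYCN the highest mean was in blastocyst transcriptomes but in morula polysomes, with overlapping polysome stages. SALL4, LIN28A and LIN28B have no first stage in both compartments, and their highest means lay at different stages. SALL4 was highest in blastocyst transcriptomes and morula polysomes, LIN28A in morula transcriptomes and 2-cell polysomes, and LIN28B in MII transcriptomes, near the floor, and blastocyst polysomes. The samples are 1 stage apart, so a lag shorter than the interval between sampled stages was not measurable. The following percents are a description without a test. As a percent of the highest stage mean in the same compartment, 8-cell OTX2 was at 2.41% in transcriptomes and 0.083% in polysomes, 8-cell MYCN at 3.12% and 1.39%, and morula MYCN at 17.2% and 100%, the morula being its highest polysome stage. The 8-cell pools of OTX2 and MYCN each rest on 6 counts in 1 gradient. At the other end of the window, morula NANOG stood at 30.6% in transcriptomes and 8.34% in polysomes, and morula MYC at 16.6% and 0.57%. Blastocyst OTX2 stood at 23.1% in transcriptomes and 98.5% in polysomes, and blastocyst POU5F1 at 37.3% and 54.0%. In blastocysts OTX2 lay above all 3 transcriptomes in 19 of 20 single fractions, light ones among them.

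**Figure D4:**
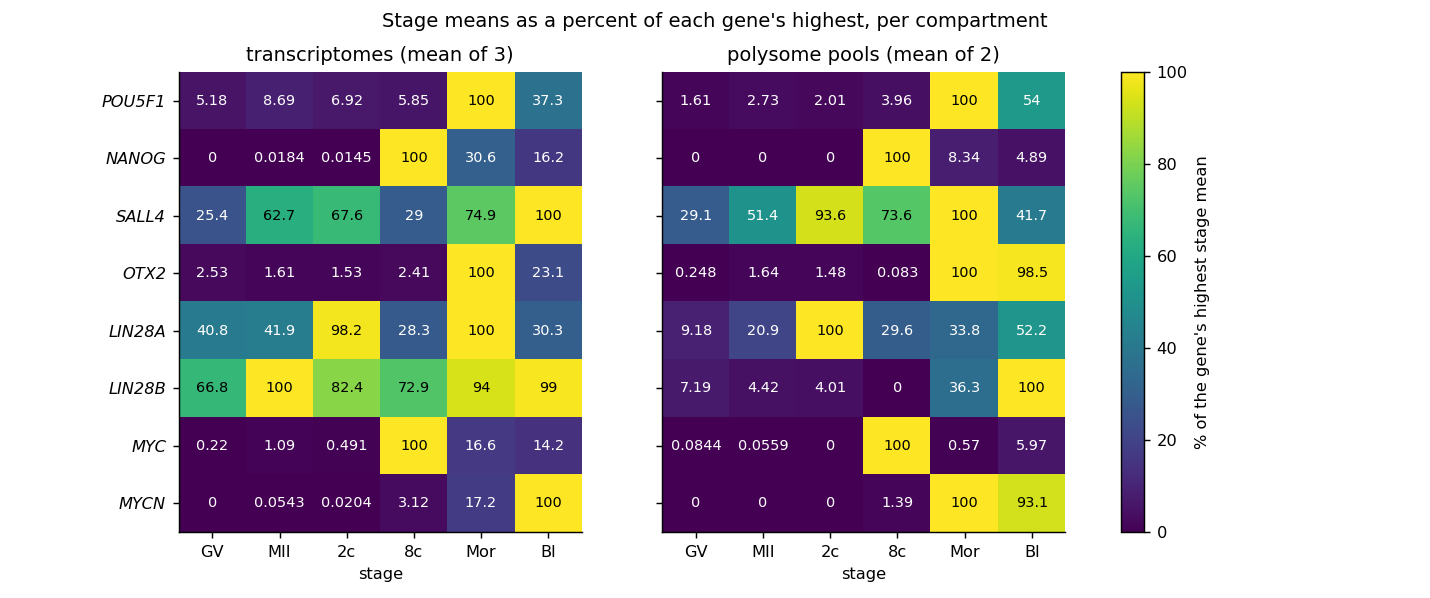
Stage means of the 8 members as a percent of the highest stage mean in the same compartment (color, 0 to 100%), with transcriptomes on the left and polysome pools on the right. The 100% cells fall in the same column on both sides for POU5F1, NANOG, OTX2 and MYC.

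Other genes of the network were counted from lists that did not include the members. Of 15 core and naive pluripotency factors, 11 rose and 2 fell in transcriptomes from the 2-cell to the 8-cell stage, and 9 rose and 1 fell in polysomes. The median log2 change of this list was 5.88 and 4.83, beside 0.03 and -0.26 over all genes. At this step 50.1% of all genes were called in transcriptomes and 46.3% in polysomes, and the shares of the lists are to be read against these values. The summed level of the 15 factors went the other way in transcriptomes, from 2839 to 4854 CPM in 2-cell libraries to 1328, 2221 and 2192 CPM in 8-cell libraries A, B and C, and went from 552 to 644 CPM to 2852 to 3036 CPM in pools. Most of the 2-cell sum was DPPA3, a maternal-effect factor, named here after its values were seen, which fell (4174, 4825 and 2788 CPM to 546, 1020 and 1049 CPM, log2 -2.17 ± 0.33, adjusted p = 7.58e-06, edgeR). The largest transcriptome changes were rises of ZFP42 (from 1 to 7388 counts over 3 libraries, adjusted p = 5.81e-09), KLF17 (from 4 to 10170 counts, adjusted p = 6.79e-09) and DPPA2 (from 4 to 4245 counts, adjusted p = 3.72e-09, edgeR). In polysomes they rose too, from 29 to 3457, from 177 to 32285 and from 2 to 2817 counts over 2 pools. ZFP42, also called REX1, is a zinc-finger marker of naive pluripotent cells, KLF17 is a Kruppel-like factor of naive cells, and DPPA2 is a chromatin factor of early embryonic genes. Of 24 epiblast and primed pluripotency genes tested, 4 rose and 6 fell at this step in each compartment, led in transcriptomes by rises of the cadherin CDH2 (7.80 ± 0.89) and the homeobox gene OTX1 (5.34 ± 1.02) and a fall of the ligand NODAL, from 97 to 2 counts (adjusted p = 0.000722, edgeR). This share of 10 of 24 lay below that of all genes. The 8-cell transcriptome A stood apart in this list too, with a summed level of 519 CPM against 192 and 225 CPM in B and C and 88.8 to 117 CPM in 2-cell libraries. Without it 2 genes of the list rose and 5 fell (29.2%, against 44.4% of all genes), with CDH2 at 7.09 ± 0.91 (adjusted p = 1.38e-06, edgeR).

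Of 15 signal receptors and effectors, 3 rose and 7 fell in transcriptomes at the 8-cell stage, among them the activin receptor ACVR1B (-4.37 ± 1.42), the interleukin-6 family co-receptor IL6ST (4.08 ± 0.49) and SMAD3 (-3.71 ± 0.82). Of these, SMAD3 was also called in polysomes (-2.93 ± 0.92, adjusted p = 0.0118), whereas ACVR1B (-0.83, adjusted p = 0.671) and IL6ST (0.54, adjusted p = 0.433, edgeR) were not. The summed level of the list was 1212 to 1287 CPM in 2-cell transcriptomes and 789, 430 and 498 CPM in 8-cell transcriptomes A, B and C. Without library A, 2 rose and 7 fell, with IL6ST at 3.63 ± 0.49 (adjusted p = 2.66e-06, edgeR). In the LIN28 and let-7 axis, 3 of 13 tested genes rose and 5 fell in transcriptomes, and 2 rose and 7 fell in polysomes. IGF2BP1, an RNA-binding protein that stabilizes transcripts, rose in both (6.86 ± 0.98 and 5.23 ± 1.04), and its relative IGF2BP2 fell in both (-3.52 ± 0.82 and -3.97 ± 1.02). ARID3A, a DNA-binding protein, was at least 15.9-fold higher in 8-cell transcriptomes (adjusted p = 0.000249, edgeR) and had 3 counts or fewer in the pools of both stages. In the MYC network 7 of 21 genes rose and 4 fell in transcriptomes and 8 rose and 3 fell in polysomes, with a rise of CCND2 (from 2 to 650 counts and from 1 to 1705 counts) and a fall of SKP2 (-3.55 ± 0.43 and -2.63 ± 0.51), which encode a D-type cyclin and a substrate receptor of a ubiquitin ligase. MGA, a MAX partner, rose in transcriptomes (2.98 ± 0.87) and was at 1.67 ± 1.03 in polysomes (adjusted p = 0.185, edgeR). The share of the MYC network called in transcriptomes, 52.4%, was near the 50.1% of all genes, and those of the signal receptors and of the LIN28 and let-7 axis were 66.7% of 15 and 61.5% of 13 genes.

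Markers of other cell types moved at the same step. All 13 oocyte markers fell from the 2-cell to the 8-cell stage in both compartments, led in transcriptomes by the zona pellucida genes ZP4 (-5.64 ± 0.84) and ZP2 (-5.57 ± 0.72) and the oocyte factor FIGLA (-5.42 ± 0.81). Of 14 trophectoderm markers 4 rose and 5 fell in transcriptomes and 4 rose and 2 fell in polysomes, with rises of the transcription factors TFAP2C and TEAD4 (each from 1 count, to 3848 and 570) and the keratin KRT18 (5.38 ± 0.82). Of 10 hypoblast markers 6 rose and 1 fell in transcriptomes and 3 rose and 2 fell in polysomes, with rises of GATA6 (from 1 to 227 counts), the protease gene CTSV (6.57 ± 0.43) and the receptor PDGFRA (5.69 ± 0.46). Of 11 cumulus and granulosa markers tested, 6 rose and 2 fell in transcriptomes and 5 rose and 3 fell in polysomes, led by the steroidogenic enzyme CYP11A1 (from 3 to 2980 counts), the inhibin subunit INHA (from 0 to 236 counts) and TNFAIP6 (from 6 to 1008 counts). Their summed level was 420 to 450.4 CPM in 2-cell transcriptomes, 1353, 311 and 339 CPM in 8-cell transcriptomes A, B and C and 145 to 202 CPM in morulae. In pools the ranges at these stages were 853 to 1179, 231 to 369 and 57.8 to 229 CPM. Of all genes 50.1% were called in transcriptomes at this step, beside 64.3% of the trophectoderm and 70% of the hypoblast markers. In polysomes 46.3% of all genes were called, against which the polysome counts of these lists are to be read. Without 8-cell transcriptome A the trophectoderm counts were as given, 5 hypoblast and 5 cumulus and granulosa markers rose, and the fitted log2 change of INHA, which depends on the prior count, was 5.89 in place of 9.93 (adjusted p = 0.0182, edgeR). All 27 genes named from the lists by the rule kept their call and direction without it. At the 8-cell stage every member except MYCN was lower in transcriptome A than in B and C, and MYCN in A lay between them. The part of cumulus and granulosa cells in the 8-cell levels of the members was not tested.

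Each member's 12 group means, taken as logarithms, were set against those of all other genes tested, as a description without a test, since the 12 means share libraries and stages. POU5F1 was most alike to LY6H, ARRB1 and NRGN (Pearson's r 0.968, 0.959 and 0.958 over 12 group means), and NANOG to LMO2, RNF11 and PRNP (0.981, 0.976 and 0.976). SALL4 was most alike to LSR (0.955), OTX2 to NUGGC (0.980), MYC to C1QTNF1 (0.973) and LIN28B to MDFI (0.960). LIN28A had the weakest match, STON2 at 0.891. The gene most like MYCN was TDGF1 (0.985), the Nodal co-receptor also called CRIPTO, which belongs to the list of core and naive factors above.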

How the data were processed

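Oocytes and embryos were pooled per library, and 138 libraries (120 gradient fractions and 18 transcriptomes), made with a Smart-seq V4 kit per the labels, were mapped to 6 stages from their titles. The authors deposited expected counts per gene, estimated with Salmon (version not given in the sources used here), of which 11.7% were not whole. The labels' notes name the UMD3.1 build and the methods ARS-UCD1.2, and no coordinates are used. No column was left unmapped. The members and all gene lists were chosen with earlier results of these data known.

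Counts of F8 to F10 were summed per gradient and rounded. TMM factors, a filter on low counts (filterByExpr, 14612 genes kept) and edgeR's quasi-likelihood test were fitted to 30 libraries in 12 groups, with 18 residual degrees of freedom and no replicate term. The study's likelihood ratio test, DESeq2, other scalings, filters and pools, separate models, a replicate block, thinning to 3269385 counts and the omission of each library were alternatives. For the other lists, the omission of 8-cell transcriptome A was chosen after seeing the data. Calls needed a Benjamini-Hochberg adjusted p under 0.05 over all genes, and a fold above 2 for changes between stages. ± gives the standard error. Trends used log2(CPM + 1) in 16 libraries (F3 to F10) of genes with a mean of at least 1 CPM, with a two-sided p from 100000 permutations. Both procedures were tested on simulated data.

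All 8 members were named. From other lists, up to 3 called genes with the largest transcriptome change from the 2-cell to the 8-cell stage were named, and for likeness the genes with the highest r of log2(CPM + 1). Where a group had no count, folds were taken against a floor of 3 counts over the group. Intervals of count ratios were 95% exact binomial ones. Intervals and floors cover counting error only. Letters A, B and C were not treated as pairs in the main fit. Of 78 replicate pairs compared, 0 were identical, and the lowest chi-square per degree of freedom was 11.9. Per the study's methods the gradients of a stage came from separate runs of the fractionation and the transcriptome pools from the same batches. The labels do not tie the letters to batches, so p-values measure the spread between these samples, part of which may be technical. Totals per fraction ranged from 1229382 to 17342859 counts. Python 3.11.15, numpy 2.4.6, pandas 2.3.3, scipy 1.17.1, matplotlib 3.10.9, R 4.3.3, edgeR 4.0.16, limma 3.58.1 and DESeq2 1.42.0 were used.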

Additional observations from a re-analysis of the deposited data

Results flagged for a closer look

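For 2 members the change from the 8-cell stage to morula differed between polysomes and transcriptomes by a test of the difference itself. LIN28B had a difference of 7.76 on the log2 scale, which rests on 0 counts in the 8-cell pools, and MYC one of -4.75, which rests on 12 counts in the morula pools.

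The fractions F1 and F2, which hold mostly free RNA and enter neither the polysome pools nor the trend, carried 7 members above the level of 3 counts in both gradients at the stage where their mean there was highest. At that stage, the mean of F1 and F2 was 255 CPM for POU5F1 in morulae, 73.0 CPM for NANOG in 8-cell embryos and 518 CPM for SALL4 in 8-cell embryos. It was 53.4 CPM for OTX2 in morulae, 26.0 CPM for LIN28A in 2-cell embryos and 12.02 CPM for MYC in 8-cell embryos. For MYCN in blastocysts it was 49.2 CPM.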

How the results depend on the processing

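Of 65 calls of single members in the edgeR models, 42 were kept under all alternatives that used every library, 45 when any 1 library was left out, and 38 under both. The number of member calls that differed between compartments, 2 as reported, was 9 with the likelihood ratio test, 8 with DESeq2, 5 with F7 added to the pools, 4 after thinning, 1 with DESeq2 size factors and 1 to 6 with single libraries left out, 6 being without 8-cell gradient B. Separate models per compartment gave 5 polysome changes between stages in place of 11. With library totals in place of TMM, 12 of 96 group levels moved by more than 1 SD. Trends numbered 0 to 1 with a single gradient, against 6. With 1 library left out, member calls ranged from 8 to 11 for changes between stages in transcriptomes (11 as reported), from 8 to 12 in polysomes (11), from 17 to 20 between compartments (19) and from 24 to 29 for rises over the 2-cell stage (28).

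Directions that turned were POU5F1 in polysomes from the 2-cell to the 8-cell stage without 8-cell gradient B (-0.035, against 1.57 without gradient A), and LIN28B with F7 in the pools, in polysomes from the 2-cell to the 8-cell stage (3.47), in the difference of changes to morula (-0.15) and against transcriptomes at the 8-cell stage (1.92). Without MII gradient A the OTX2 difference of changes from GV to MII was -4.46 and without GV gradient B 8.47, and without 8-cell gradient A the LIN28A difference from transcriptomes at the 8-cell stage was -0.50 and without gradient B 2.92. The causes were not tested. First polysome calls moved to the 8-cell stage for POU5F1 with no filter, with F9 and F10 or F7 to F10 pooled, after thinning and without 8-cell gradient A. That of MYCN moved to the morula with separate models, after thinning and without 2-cell gradient A or B or 8-cell gradient B, and OTX2 had none with separate models.

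With the letters as a replicate block, the count of differences between compartments was 1, with MYC at -4.94 (adjusted p = 0.0522, edgeR). Same-letter samples showed little shared deviation (37 pairs, r from -0.346 to 0.131, 1 above 0.1). These pairs are not independent, since the deviations of gradients A and B of a stage mirror each other. Whether a letter marks a shared batch was not tested. The depth of blastocyst transcriptomes limits LIN28B, MYC and LIN28A, which rest there on few counts.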
